A study of Mus musculus with 24 samples.

Results

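The constitutive proteasome genes are the rows of the deposited table whose symbol begins with Psma, Psmb, Psmc or Psmd and ends in a number, without the 3 inducible catalytic subunits Psmb8, Psmb9 and Psmb10. This rule gave 35 of the 12767 listed genes: 8 genes of the alpha ring (Psma), 7 of the beta ring (Psmb), 6 ATPases (Psmc) and 14 non-ATPase genes (Psmd). All 35 passed the filter on low values, a mean of at least 10 normalised counts over the 24 libraries. RNA had been sequenced from CD11c+ cells, labelled as dendritic cells, that were purified with CD11c MicroBeads from mesenteric lymph nodes (MLN). The donors were female C57BL/6 mice of 6 to 8 weeks carrying subcutaneous tumours of MC38, a mouse colon carcinoma line started from 1000000 injected cells. Mice were either wild type or Myd88 knockout, the latter lacking the adaptor through which most Toll-like receptors signal. In each genotype 4 groups of 3 libraries were sequenced: IgG control antibody at 200 ug per mouse, anti-PD-1 antibody at 200 ug per mouse, live oral LGG (Lactobacillus rhamnosus GG), and anti-PD-1 with LGG, called the combination here. Treatment began 7 to 10 days after injection, when tumours averaged 100 mm3, and ran with 2 doses a week for 2 to 3 weeks. No antibody is recorded for the mice given LGG alone. The labels do not say whether the 3 libraries of a group came from separate mice, so the spread behind each p-value may be technical.

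The proteasome is the barrel-shaped protease that degrades ubiquitin-tagged proteins. The alpha rings gate the entrance of its core, the beta rings hold the catalytic sites, the ATPases of the cap unfold and push in the substrate, and the non-ATPase genes of the cap encode ubiquitin receptors, a deubiquitinase, scaffolds and some assembly chaperones. In antigen-presenting cells the cleaved peptides are loaded on MHC class I, and interferon exchanges the constitutive catalytic subunits for inducible ones, which forms the immunoproteasome.

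The libraries held between 24531528 and 49272593 whole reads, and the 35 genes took 0.439% to 0.686% of them. Exons of 9 members overlap another annotated gene, which counting without strand could mix, and Psmb5, Psmb6 and Psmb7 have named pseudogenes. Myd88 itself stood between 1723 and 2232 (normalised counts) in wild type and between 697 and 1837 in the libraries labelled knockout. Under IgG it was lower in knockout by limma (log2 difference -0.58 ± 0.19, adjusted p = 0.0185), a call lost without knockout IgG replicate 3 or wild-type IgG replicate 1 or 3 (adjusted p = 0.0725, 0.0548 and 0.0541). One of these, knockout anti-PD-1 replicate 3, lay inside the wild-type range. A count over the whole gene does not show which exons the reads came from, so it checks the genotype labels only in part. That library also had the highest value of all 24 for 27 of the 35 members, yet the lowest for Psmb7 and Psmd1. Knockout anti-PD-1 replicate 2 was the lowest of its group for 32 members and knockout LGG replicate 2 the highest of its group for 31. Their median log2 distances over members from the other 2 libraries were -0.74 and 0.57. Such a rank was not particular to them: knockout IgG replicate 3 and wild-type LGG replicate 3 were lowest for 32, and knockout LGG replicate 3 for 31. There the median distances were -0.23, -0.16 and -0.42. The sum over members had a coefficient of variation of 38.5% in knockout anti-PD-1 and 25.2% in knockout LGG, against 2.32% to 8.43% in the other 6 groups. Across 12741 genes, the deviation of a library from the other 2 of its group was related to exon length, the merged length of all annotated exons of a gene. Spearman's rho was 0.52 for knockout anti-PD-1 replicate 2, -0.38 for its replicate 3 and -0.56 for knockout LGG replicate 2. It ran from -0.42 to 0.55 in the other 21 libraries, a range that only knockout LGG replicate 2 of the 3 left. The limits belong to knockout anti-PD-1 replicate 1 and knockout LGG replicate 3, whose deviations are themselves taken against libraries among the 3. Because these 3 libraries widen the spread that a joint fit assigns to every group, the counts of called members are given for all 24 libraries and for the 21 without them. In the 21-library fit knockout anti-PD-1 keeps replicate 1 only, which is then assumed to vary like the other groups.

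**Figure D1:**
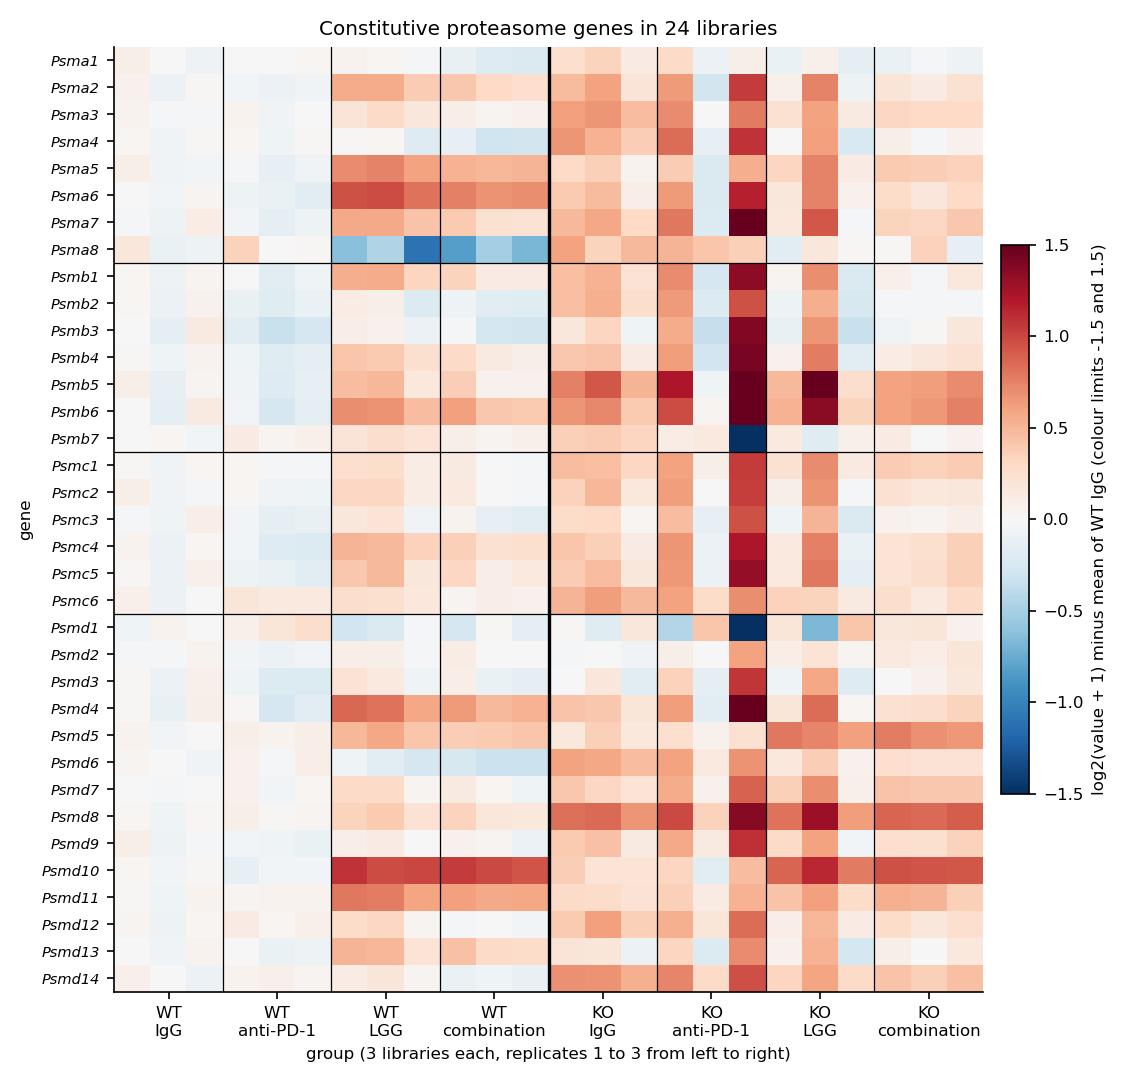
Rows are the 35 genes and columns the 24 libraries; colour is log2(value + 1) minus the gene's mean in wild-type (WT) IgG, with colours limited at -1.5 and 1.5. Psmd10, Psma6 and Psmd4 are red in the 6 wild-type libraries with LGG, and knockout (KO) anti-PD-1 replicate 3 stands out by 27 highest values and by 2 lowest values, in Psmb7 and Psmd1.

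LGG in wild-type mice was accompanied by a rise of 7 proteasome genes and a fall of 1. Psmd10, the assembly chaperone gankyrin, rose 2.03-fold, Psma6 of the alpha ring 1.89-fold, and Psmd4, the ubiquitin receptor of the cap, 1.68-fold. Psma8, a subunit best known from the testis that was scarcely transcribed here, fell 1.65-fold. The test was limma on log2(value + 1) over 12749 genes, two-sided, called below a Benjamini-Hochberg adjusted p of 0.05. By that rule 27.4% of all genes were called higher and 28.2% lower, against 20% and 2.86% of the members, so the share of members called higher was below that of all genes. In the 21-library fit, 23 of 35 members (65.7%) were called higher and 2 (5.71%) lower, beside 36.7% of all genes in each direction. The change was positive for 30 members, and its median on the log2 scale was 0.22 against -0.00 over all genes. The fold changes of this comparison are the same in both fits, since none of the 3 libraries belongs to it, and only the estimated spread differs.

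The combination set against anti-PD-1 alone tests the addition of LGG in 6 other wild-type libraries. There 6 members were called higher and 2 lower, beside 27.7% and 29.1% of all genes. In the 21-library fit the counts were 16 and 6, beside 37% and 37.5%. The 6 genes called higher (Psma5, Psma6, Psmd4, Psmd5, Psmd10 and Psmd11) were also called higher with LGG alone, where they made up 85.7% of the 7. The share of all genes called higher in both comparisons was not computed, so nothing particular to the members is read from this overlap. Psmc6, an ATPase, was the one called with LGG alone only, and its change in the second comparison was -0.10 ± 0.09 (log2, standard error). Psma8 was called lower both times. Psmd6 of the lid had log2 changes of -0.16 ± 0.11 with LGG alone (adjusted p = 0.215) and -0.35 ± 0.11 in the second comparison (adjusted p = 0.0084), and with 21 libraries it was called lower in both (adjusted p = 0.0125 and 7.08e-06).

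The promoter sequences of the 3 members with the largest rise are shown first, together with Psmb5, a catalytic subunit whose promoter holds an antioxidant response element core. They come from RefSeq (GRCm38.p6), each written 5′ to 3′ on the strand of its gene, and all lie upstream of the RefSeq transcription start. The windows are chrX:140956731-140956851 on the minus strand for Psmd10, chr12:55384082-55384202 on the plus strand for Psma6, chr3:95042634-95042754 on the minus strand for Psmd4 and chr14:54618025-54618135 on the minus strand for Psmb5. They run from 140 to 20 bases before the RefSeq start, and for Psmb5 from 140 to 30. Capitals mark CCAAT or its reverse complement ATTGG in Psmd10, Psma6 and Psmd4, a match to the interferon-stimulated element (GAAA, any 2 bases, GAAA) on the opposite strand in Psmd4, and a match to TGACNNNGC in Psmb5.
Psmd10: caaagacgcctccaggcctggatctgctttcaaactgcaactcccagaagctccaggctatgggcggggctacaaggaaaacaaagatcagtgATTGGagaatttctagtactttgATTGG
Psma6: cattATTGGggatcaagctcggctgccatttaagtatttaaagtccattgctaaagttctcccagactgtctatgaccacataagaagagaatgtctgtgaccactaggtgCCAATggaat
Psmd4: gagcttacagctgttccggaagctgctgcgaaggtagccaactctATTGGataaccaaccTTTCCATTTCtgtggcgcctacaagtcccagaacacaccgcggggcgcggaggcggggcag
Psmb5: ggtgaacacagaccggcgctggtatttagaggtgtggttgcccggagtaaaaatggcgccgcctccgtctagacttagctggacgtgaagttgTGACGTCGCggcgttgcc
Over the 250 bases before the start, 30 windows of 28 members were searched on both strands and compared with all 32851 windows. TGACNNNGC, the core bound by Nfe2l1 and related factors, was found in 16.7% of the member windows (Psmb5, Psmb6, Psmc6, Psmd9 and Psmd12) and in 10.2% of all windows. CCAAT was found in 36.7% and 33.8%. The interferon-stimulated element was found in 10% (Psmb3, Psmd4 and Psmd9) and in 2.98%, and its 3 members had log2 changes of 0.02, 0.75 and 0.07 with LGG in wild type. A match describes the letters only, and with so few windows the shares are a description without a test.

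In the alpha ring, Psma6 read 5050, 4893 and 5212 normalised counts with IgG, 9776, 9980 and 8849 with LGG, 4776, 4696 and 4494 with anti-PD-1 and 8546, 8035 and 8176 with the combination. All 6 libraries with LGG lay above all 6 without it. Its log2 change was 0.91 ± 0.22 with LGG alone (adjusted p = 0.00173, limma) and 0.83 ± 0.22 in the combination (adjusted p = 0.00377). Psma5 followed the same order, with 2845 to 3296 counts in the 6 libraries without LGG and 4369 to 5201 in the 6 with it, and log2 changes of 0.69 and 0.57 (adjusted p = 0.000701 and 0.00334), or 0.42 and 0.34 with the length and GC trend described below removed. Psma2 and Psma7 had log2 changes of 0.50 and 0.52 with LGG that did not pass with 24 libraries (adjusted p = 0.0715 and 0.121) and passed with 21 (6.99e-06 and 1.27e-06). Psma1 and Psma4 had changes of 0.02 and -0.05, within their standard errors of 0.08 and 0.22. Psma8, read at 63.2 to 86.1 counts without LGG, stood at 31.0 to 49.4 with it, with log2 changes of -0.73 ± 0.17 and -0.79 ± 0.17 (adjusted p = 0.00128 and 0.000568). The ring therefore held both the second largest rise of the family and its largest fall.

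None of the 7 beta-ring genes passed in the main fit of 24 libraries in either comparison. Psmb6, which carries the caspase-like site, had 6871, 6272 and 7590 counts with IgG and 11191, 11035 and 9534 with LGG, groups that do not overlap. Its log2 change was 0.62 ± 0.31 (adjusted p = 0.0951), and with 21 libraries the error was 0.09 (adjusted p = 4.72e-06). Psmb5, of the chymotrypsin-like site, had 3167, 2747 and 3078 counts with IgG and 4125, 4240 and 3349 with LGG, a log2 change of 0.38 ± 0.37 (adjusted p = 0.406, and 0.00317 with 21 libraries). With the length and GC trend removed the change was 0.06 (adjusted p = 0.753), and in the combination it went from 0.28 to -0.16 (adjusted p = 0.406). For Psmb7, of the trypsin-like site, the 3 IgG libraries lay at 1728 to 1824 and the 3 LGG libraries at 2036 to 2142, a log2 change of 0.22 ± 0.27 (adjusted p = 0.511, and 0.000223 with 21 libraries). Psmb2 and Psmb3 had changes of -0.00 and 0.02 and passed in neither fit. With the length and GC trend removed Psmb2 was called lower with LGG alone and in the combination (-0.28 each, adjusted p = 0.000562 and 0.000397). Psmb6 was then called higher in the combination (0.47, adjusted p = 0.045) and not with LGG alone (0.45, adjusted p = 0.0547). The median over the beta ring was 0.35 with LGG alone and 0.27 in the combination.

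Of the ATPases, which form the ring that unfolds the substrate, Psmc6 was called with LGG alone, at 2173 to 2423 counts with IgG and 2572 to 2768 with LGG (log2 change 0.22 ± 0.09, adjusted p = 0.0405). This call was lost when each library's trend over GC content and exon length was removed (0.17, adjusted p = 0.155). Psmc4 had the largest change of the ring, with 3667, 3326 and 3622 counts against 5044, 4952 and 4497 (0.45 ± 0.22, adjusted p = 0.0975, and 2.54e-05 with 21 libraries). Psmc3 had the smallest, 0.11 ± 0.20. All 6 changes were positive with LGG alone, and with 21 libraries 5 of the 6 passed, against 2 of 6 in the combination.

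The non-ATPase genes held 4 of the 7 calls with LGG alone. Psmd10 read 937, 896 and 931 counts with IgG, 844, 897 and 895 with anti-PD-1, 1950, 1815 and 1852 with LGG, and 1913, 1831 and 1770 with the combination. All 6 libraries with LGG lay above all 6 without it, and the log2 changes were 1.02 ± 0.12 (adjusted p = 2.9e-07) and 1.06 ± 0.12 (adjusted p = 1.55e-07). Psmd4 read 3691, 3358 and 3874 with IgG and 6604, 6399 and 5430 with LGG (0.75 ± 0.27, adjusted p = 0.0225), and 3666, 3060 and 3245 with anti-PD-1 and 5668, 5096 and 5204 with the combination (0.68 ± 0.27, adjusted p = 0.0364). Without wild-type IgG replicate 2, or LGG replicate 1 or 2, its adjusted p was 0.068, 0.0674 and 0.0599. In the combination its call was likewise lost without any one of the 3 combination libraries or anti-PD-1 replicate 2 or 3 (adjusted p between 0.0614 and 0.0985). Psmd11, a scaffold subunit of the lid, rose from 2325 to 2512 counts to 3671 to 4209 (0.72 ± 0.09, adjusted p = 1.61e-06), and Psmd5, a chaperone of the base, from 1253 to 1335 to 1720 to 1936 (0.50 ± 0.07, adjusted p = 8.04e-06). For Psmd5 the second comparison was called at 0.32 ± 0.07 (adjusted p = 0.000921) and not called once the length and GC trend was removed (adjusted p = 0.064). Psmd14, the deubiquitinase of the lid, had 2700, 2564 and 2411 counts with IgG and 2759, 2895 and 2622 with LGG, groups that overlap (0.11 ± 0.12, adjusted p = 0.453). Psmd2, a large scaffold and ubiquitin-binding subunit of the base, had 9733, 9713 and 10327 against 10612, 10542 and 9813, also overlapping (0.06 ± 0.11, adjusted p = 0.678). Psmd1, the other large scaffold, had the lowest change of the non-ATPase genes, -0.18 ± 0.45.

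**Figure D2:**
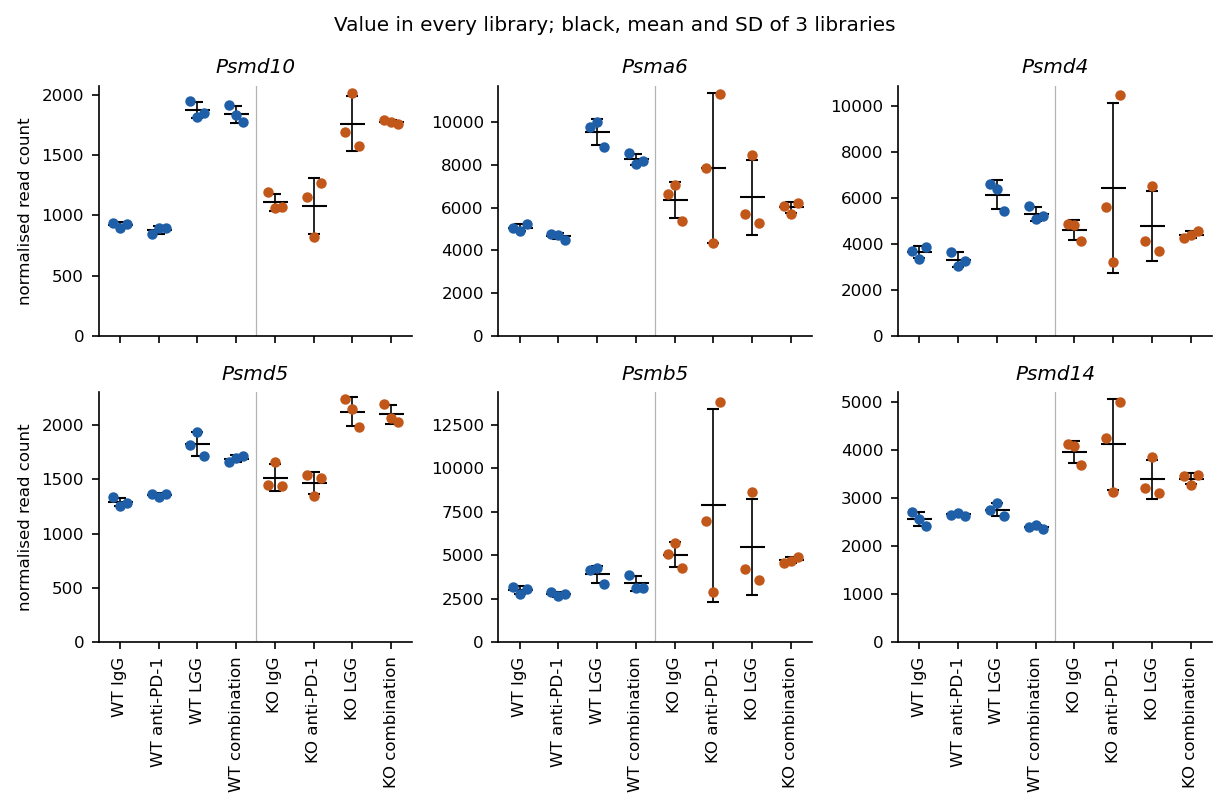
Normalised read count of 6 genes in each of the 24 libraries (points, blue for WT and orange for KO), with the mean and SD of 3 libraries in black. Psmd10 and Psmd5 are higher in both genotypes with LGG, and Psma6 and Psmd4 are higher in WT with LGG. In every panel but that of Psmd5 the widest bars belong to KO anti-PD-1 and KO LGG.

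Anti-PD-1 alone set against IgG in wild type gave no called member, beside 0.00784% of all genes called higher and 0.0235% lower. limma, edgeR and DESeq2 each gave 0 members, edgeR beside 0.00783% of all genes called higher and 0.0627% lower, and DESeq2 beside 0.58% and 1.01%. In each of the 3, 0 members had an unadjusted p below 0.05. With 21 libraries limma again gave 0, with 2 at an unadjusted p below 0.05, beside 4.37% and 4.09% of all genes. The smallest p belonged to Psmc6 (log2 change 0.16 ± 0.09, adjusted p = 0.72), with Psmd5 at 0.07 ± 0.07 and Psmb3 at -0.25 ± 0.29. The combination against LGG alone also gave no called member by limma, edgeR or DESeq2, and 1, 0 and 1 members respectively had an unadjusted p below 0.05. Of all genes limma called 0.0392% higher and 0.0235% lower, edgeR 0.0627% and 0.0235%, and DESeq2 0.384% and 0.251%. The smallest p were those of Psma1, Psmc6 and Psmd12, with log2 changes of -0.19, -0.16 and -0.23 (adjusted p = 0.742, 0.836 and 0.836). In that comparison 33 of the 35 changes were negative, with a median of -0.17 against -0.02 over all genes. With 21 libraries no member was called higher, beside 3.87% of all genes, and 6 were called lower, among them Psma1 (-0.19 ± 0.05, adjusted p = 0.0317), Psmd12 (-0.23 ± 0.07, adjusted p = 0.0452) and Psmb7 (-0.15 ± 0.05, adjusted p = 0.0456), beside 4.72% of all genes.

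Other genes of the pathway moved unequally with LGG in wild type. Of the 8 inducible subunits and activators, 4 were called higher and 1 lower, with a median log2 change of 0.65, and 6 and 2 with 21 libraries. The shares of all genes called, 27.4% higher and 28.2% lower with 24 libraries and 36.7% each with 21, stand beside this and the following lists, and nothing particular to a list is read from its count. Psme2 and Psme1, the 2 subunits of the interferon-inducible activator, rose by 1.39 ± 0.28 and 0.91 ± 0.21 (adjusted p = 0.000331 and 0.00122). Psmb9 rose by 0.89 ± 0.23 (adjusted p = 0.00229) and the inhibitor Psmf1 by 0.60 ± 0.09 (adjusted p = 5.16e-06). Psmb8 and Psmb10 had changes of 0.70 ± 0.38 and -0.43 ± 0.33 that were not called with 24 libraries (adjusted p = 0.122 and 0.279) and were called with 21 (1.35e-05 and 0.00114). With the length and GC trend removed Psmb10 was called at -0.61 (adjusted p = 0.0082). Psme3, the nuclear activator, fell by 0.39 on the log2 scale (adjusted p = 3.08e-05). Among 6 listed assembly chaperones, Pomp, which matures the core, and Psmg4 were called higher at 0.59 ± 0.21 and 0.93 ± 0.30 (adjusted p = 0.0235 and 0.0135), and Psmg1 was called lower at -1.15 ± 0.25 (adjusted p = 0.000668). With 21 libraries 3 of the 6 were called higher and 2 lower. The Pomp call was lost without wild-type IgG replicate 2 or LGG replicate 1 or 2 (adjusted p = 0.0722, 0.0555 and 0.0648). Of the 10 transcription factors and their processing genes 4 were called higher and 1 lower, and 5 and 3 with 21 libraries. Nfe2l1, the membrane-bound factor known to induce proteasome genes when degradation is blocked, rose by 0.63 ± 0.08 (adjusted p = 2.22e-06), and its partner Maff by 2.15 ± 0.08 (adjusted p = 1.17e-14). The 14 associated enzymes and shuttles had 4 called higher and 6 lower (4 and 7 with 21 libraries), with a median of -0.23, the deubiquitinase Usp14 falling by 0.81 on the log2 scale (adjusted p = 4.48e-06). Ubb, which encodes ubiquitin, rose by 0.78 ± 0.16 (adjusted p = 0.000372).

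Markers of several cell types moved with LGG as well. In wild type, 9 of 12 macrophage and monocyte markers were called lower and 1 higher (10 and 1 with 21 libraries). Their summed level fell from between 276235 and 297869 normalised counts with IgG to between 80098 and 88663 with LGG. All 10 cell-cycle genes were called lower in both fits, from a sum of 28457 to 28716 to one of 11793 to 12272. Of 12 listed dendritic markers 7 were called higher and 2 lower (9 and 2 with 21 libraries). Their sum went from between 213120 and 239613 to between 321200 and 369413. No listed marker of these 3 sets was at 0 in a whole group. With 24 libraries 4 of 12 T cell markers were called higher and 3 lower. Of 6 cytotoxic cell markers 3 were called higher and 1 lower, and of 5 B cell markers 3 and 0. Among 7 neutrophil markers 0 were called higher and 4 lower. In bulk RNA fewer cells of a type and less RNA per cell cannot be told apart, and the part of these shifts in the proteasome values was not tested.

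Under IgG, 10 members were called higher in knockout than in wild type and none lower, beside 19.1% and 20% of all genes. With 21 libraries 30 of the 35 (85.7%) were called higher and none lower, beside 32.8% and 31.1%. The median log2 difference was 0.34 against 0.01 over all genes, and 33 members were on the positive side. Fewer were called without wild-type IgG replicate 2 or knockout IgG replicate 2, 6 in each case, and more without knockout anti-PD-1 replicate 2 or 3 (19 and 17).

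The largest difference was that of Psmd8, a lid subunit, at 9839, 9240 and 9853 counts in wild type and 17121, 17383 and 15201 in knockout (log2 difference 0.78 ± 0.18, adjusted p = 0.00164). Psmd14 stood at 2700, 2564 and 2411 counts in wild type and 4119, 4078 and 3693 in knockout (0.63 ± 0.12, adjusted p = 0.000261). Psma3 of the alpha ring read 4996, 4727 and 4734 against 7366, 7608 and 6657 (0.58 ± 0.14, adjusted p = 0.00318). In all 3 genes the 2 groups were well apart. The other called genes were Psma1, Psma8, Psmc6, Psmd5, Psmd6, Psmd11 and Psmd12, with log2 differences between 0.23 and 0.55. With the length and GC trend removed Psmc6 went from 0.54 to 0.33 and Psmd5 from 0.23 to 0.40, and both were still called (adjusted p = 0.00905 and 0.0274). The call of Psma8 was lost without wild-type IgG replicate 2 or 3 or knockout IgG replicate 1 or 3 (adjusted p between 0.0748 and 0.127) and without the length and GC trend (adjusted p = 0.15), as were those of Psma1 and Psmd11 (adjusted p = 0.167 and 0.171).

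Psmb5 had the second largest difference, 0.73 ± 0.37, which did not pass with 24 libraries (adjusted p = 0.124) and did with 21 (5.12e-06). Psmb6 and Psmb7 differed by 0.59 and 0.35 (adjusted p = 0.137 and 0.315, and 1.34e-05 and 1.14e-06 with 21), and with the length and GC trend removed Psmb7 differed by 0.21 (adjusted p = 0.505). Psmd1 and Psmd2, the large scaffolds of the base, and Psmd3 of the lid had differences of 0.00, -0.02 and -0.00 and passed in neither fit. Of the other pathway genes, Nfe2l1 was higher by 0.23 ± 0.08 (adjusted p = 0.0363), a call lost without any one of wild-type IgG replicates 1, 2 and 3 or knockout IgG replicates 1 and 3 (adjusted p between 0.0653 and 0.167). Psmg1 and Psmg2 were higher by 0.73 and 0.67 (adjusted p = 0.0276 and 0.048), and the peptide transporter genes Tap1 and Tap2 differed by -0.80 and -0.66 (adjusted p = 9.55e-08 and 0.00951). T cell markers summed to 2019 to 2250 counts in knockout IgG and 14130 to 15107 in wild-type IgG, with 10 of 12 called lower (12 with 21 libraries). All 6 listed cytotoxic cell markers were called lower in both fits, and none of either set was at 0 in a group. Their part in the proteasome values was not tested.

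In knockout mice LGG was accompanied by 2 members called higher and 4 lower, beside 18.1% and 14.2% of all genes. With 21 libraries 3 were called higher and 23 lower (8.57% and 65.7%), beside 32% and 29.4%. Psmd10 read 1192, 1063 and 1066 counts with IgG and 1691, 2012 and 1578 with LGG, and Psmd5 1446, 1659 and 1440 against 2242, 2148 and 1980, groups that do not overlap. Their log2 changes were 0.66 ± 0.12 (adjusted p = 0.000166) and 0.49 ± 0.07 (adjusted p = 2.85e-05). These 2 chaperones were called higher in all 4 comparisons that add LGG, 2 in each genotype, and in the knockout combination against anti-PD-1 they changed by 0.74 ± 0.12 and 0.52 ± 0.07 (adjusted p = 4.96e-05 and 1.44e-05). When the fit was limited to the libraries of that last comparison, Psmd10 had an adjusted p of 0.0585. How many of all genes were called higher in all 4 comparisons was not computed.

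The 4 members called lower in knockout with LGG were Psma8, Psmd6, Psma1 and Psmc6. Psmd6 read 3493, 3451 and 3175 counts with IgG and 2573, 2983 and 2419 with LGG (-0.35 ± 0.11, adjusted p = 0.0155), and Psma1 4543, 4805 and 4150 against 3564, 4023 and 3450 (-0.29 ± 0.08, adjusted p = 0.011). Psma8 fell, with a log2 change of -0.47 ± 0.17 (adjusted p = 0.0431) and so did Psmc6, at -0.27 ± 0.09 (adjusted p = 0.0271), and both calls were lost without the length and GC trend (adjusted p = 0.0622 and 0.187). The number called lower was 0 without LGG replicate 3, 1 without IgG replicate 2, 2 without IgG replicate 1 or LGG replicate 1, 9 without LGG replicate 2 and 7 without anti-PD-1 replicate 2, and 0 when only the libraries compared were fitted. Psmb5, at 5069, 5702 and 4276 counts with IgG and 4181, 8649 and 3578 with LGG, overlapped between the groups, with LGG replicate 2 alone above every IgG library. The log2 change of Psmb5 was 0.02 ± 0.37 with that library and -0.37 without the 3 libraries (adjusted p = 0.0111). With the length and GC trend removed it was -0.23 (adjusted p = 0.269). Without the 3 libraries the number of positive changes went from 13 to 5: the sign also turned to negative for Psma6 (0.01 and -0.20), Psmd4 (0.01 and -0.23), Psma5, Psmb6, Psmd3, Psmd7, Psmd8 and Psmd13, and to positive for Psmd1 (-0.03 and 0.30). The inducible and regulatory genes Psmb8, Psmb9, Psmb10, Psme1, Psme2, Pomp and Nfe2l1 were not called in this comparison with 24 libraries, with log2 changes between -0.12 and 0.16. These changes also turned on LGG replicate 2: Psmb8 read 6806, 7681 and 5495 counts with IgG and 5197, 10959 and 4660 with LGG. The median over the 8 inducible subunits and activators was 0.085 with 24 libraries and -0.149 without the 3. Over the 6 listed assembly chaperones it was -0.385 and -0.720. The summed level of the macrophage markers went from between 390689 and 435751 to between 279834 and 381561, with 4 of 12 called lower and 2 higher (7 and 3 with 21 libraries), and 9 of 10 cell-cycle genes were called lower in both fits. T cell markers were all called higher, 12 of 12 in both fits, with a median log2 change of 1.72 and sums going from between 2019 and 2250 to between 5868 and 7871. All 6 cytotoxic and all 5 listed B cell markers were called higher in both fits, and 7 of 12 dendritic markers (9 with 21 libraries, where 1 was called lower). Their part in the proteasome values was not tested.

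The knockout combination against anti-PD-1 had 2 members called higher and 1 lower, beside 19.7% and 17% of all genes. In addition to Psmd10 and Psmd5, Psmc6 was called lower at -0.30 ± 0.09 (adjusted p = 0.0136). Counts here turned on single anti-PD-1 libraries: without replicate 2 they were 4 and 26, without replicate 1 or replicate 3 no member was called lower, and with 21 libraries they were 3 and 23, beside 28.5% and 26.4%. The number called lower was also 0 without combination replicate 2, 3 without LGG replicate 2 and 2 without LGG replicate 3. Psmb7 read 1925, 1976 and 603 counts in the 3 anti-PD-1 libraries and Psmd1 1477, 2677 and 326, while Psmb6 read 13616, 7113 and 26318 in the same libraries. Replicate 3 was therefore low in the first 2 genes and high in the third. Anti-PD-1 against IgG in knockout gave 0 called members by limma, edgeR and DESeq2, with 2, 3 and 3 at an unadjusted p below 0.05. Of all genes limma called 1.09% higher and 0.706% lower, edgeR 0.83% and 0.674%, and DESeq2 3.09% and 1.62%. Its smallest p was that of Psmb7 (-0.79 ± 0.27, adjusted p = 0.159), followed by Psmd2 (0.25 ± 0.11, adjusted p = 0.254) and Psmd3 (0.43 ± 0.22, adjusted p = 0.346). Without anti-PD-1 replicate 2 this comparison had 20 members called higher and 2 lower, without replicate 1 it had 1 called lower, and with 21 libraries 3 and 2, beside 4.73% and 4.21%. The knockout combination against LGG alone gave 0 called members by the 3 tools, with 0 at an unadjusted p below 0.05 in each. Of all genes limma called 0.0941% higher and 0.18% lower, edgeR 0.141% and 0.258%, and DESeq2 0.603% and 0.987%. With 21 libraries 2 members were called higher and 0 lower, beside 4.79% and 6.48%. The smallest p were those of Psmb2, Psmc6 and Psma8, with log2 changes of -0.10, -0.04 and 0.08.

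**Figure D3:**
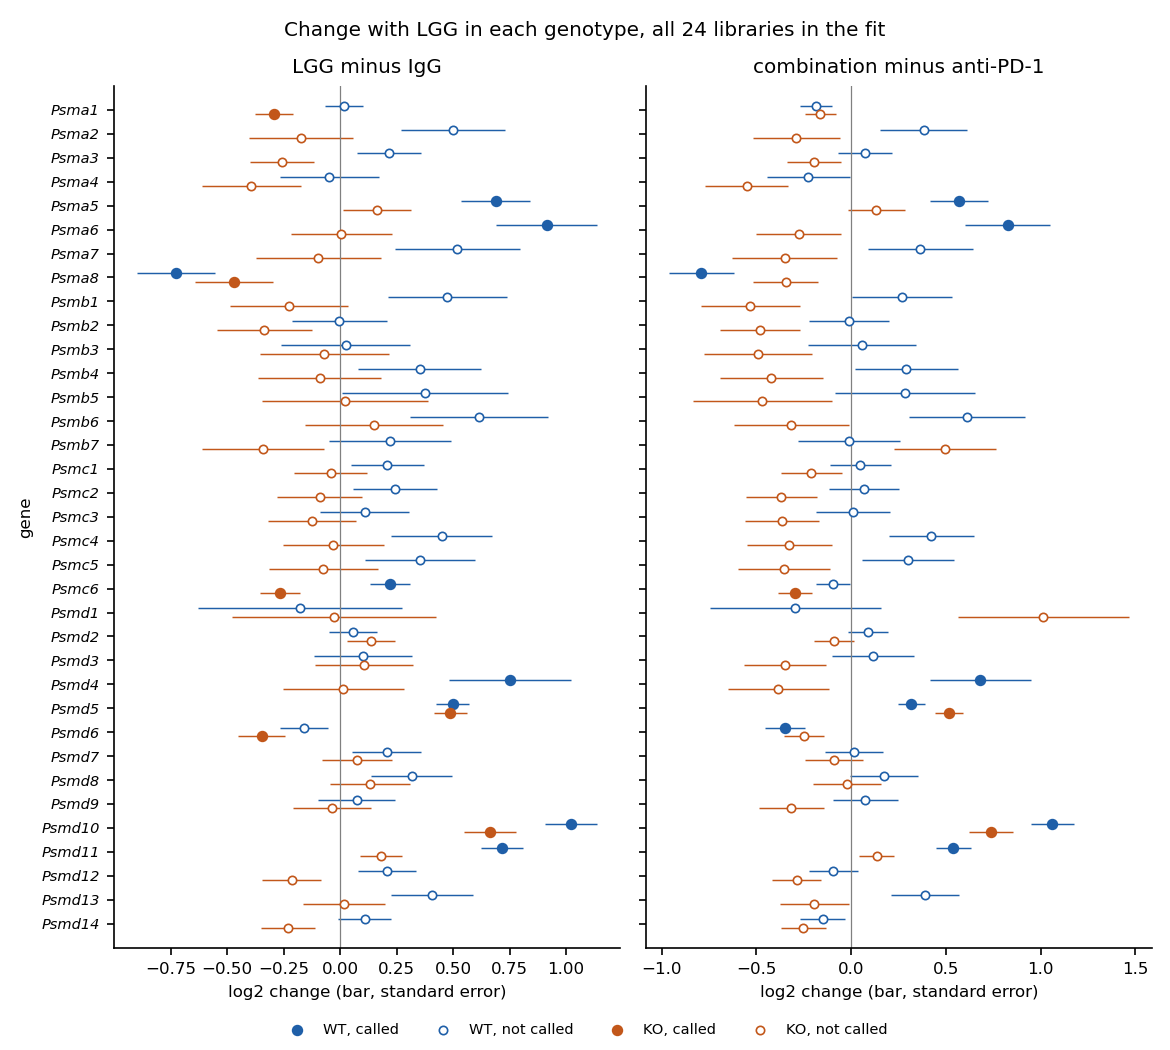
Log2 change of each of the 35 genes with LGG (left, against IgG; right, combination against anti-PD-1) in WT (blue) and KO (orange), from the fit of all 24 libraries, with bars of 1 standard error and filled points for called changes. In WT 30 of 35 points are on the positive side with LGG alone, and in KO 13 of 35.

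An interaction term asked whether the change with LGG differed between genotypes. In knockout minus wild type, 4 members were called lower and none higher, beside 15.4% and 19.5% of all genes, and with 21 libraries 29 were called lower (82.9%) and 1 higher, beside 28.7% and 34.1%. The median over members was -0.35 against 0.03 over all genes, and 31 of 35 were negative. Psma6 had the largest interaction, -0.91 ± 0.32 (adjusted p = 0.0312), and the others were Psmd11 at -0.54 ± 0.13 (adjusted p = 0.00311), Psmc6 at -0.49 ± 0.13 (adjusted p = 0.00473) and Psma1 at -0.31 ± 0.12 (adjusted p = 0.0499). For Psmd11, Psmc6 and Psma1 the call was lost without the length and GC trend (adjusted p = 0.0829, 0.062 and 0.12). The Psma6 call was lost on leaving out any one of 8 libraries of the 4 groups compared, with adjusted p between 0.0535 and 0.0827. The number called lower was 2 without knockout IgG replicate 1 or 2, knockout LGG replicate 1 or 3, wild-type IgG replicate 2 or wild-type LGG replicate 1 or 2. It was 12 without knockout LGG replicate 2 or knockout anti-PD-1 replicate 2, and 11 without knockout anti-PD-1 replicate 3. Cell markers moved with the same interaction: 9 of 12 macrophage and monocyte markers (median 2.31), 9 of 12 T cell markers (1.46), 5 of 6 cytotoxic markers (1.55) and 7 of 10 cell-cycle genes (0.75) were called higher, and 5 of 12 dendritic markers lower. With 21 libraries these counts were 10, 11, 5, 9 and 6. The opposite way, 1 macrophage and monocyte marker was called lower and 2 dendritic markers higher, in both fits. Their part in the proteasome values was not tested.

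In the presence of anti-PD-1 the same interaction had 3 members called lower, beside 17.2% of all genes, and none called higher, beside 20.5%. With 21 libraries 25 were called lower and 1 higher, beside 26.4% and 30.3%. Psma6 again came first at -1.10 ± 0.32 (adjusted p = 0.00973), followed by Psmd4 at -1.07 ± 0.38 (adjusted p = 0.0329) and Psmd11 at -0.41 ± 0.13 (adjusted p = 0.02). The number called lower was 26 without knockout anti-PD-1 replicate 2, which also gave 1 called higher, 1 without its replicate 3 and 5 without knockout LGG replicate 2. The Psmd4 call was lost on leaving out any one of 7 libraries of the groups compared (adjusted p between 0.052 and 0.0758), and that of Psmd11 without knockout combination replicate 3 (0.0591) and without the length and GC trend (0.0828). Without knockout anti-PD-1 replicate 3 the Psmd4 interaction was -0.63 (adjusted p = 0.0758) and the Psmd11 interaction -0.31 (adjusted p = 0.0506). For Psmd10 and Psmd5, called with LGG in both genotypes, the interactions were -0.36 ± 0.16 and -0.01 ± 0.10 without anti-PD-1 (adjusted p = 0.0996 and 0.955) and -0.32 ± 0.16 and 0.20 ± 0.10 with it (adjusted p = 0.128 and 0.134). With 21 libraries Psmd10 passed in both (adjusted p = 6.12e-05 and 0.00051) and Psmd5 in neither. With the length and GC trend removed the Psmd10 interactions were -0.04 and -0.05 (adjusted p = 0.734 and 0.629). In the presence of anti-PD-1, 9 of 12 macrophage and monocyte markers and 5 of 10 cell-cycle genes were called higher in the interaction. Of 12 dendritic markers 7 were called lower. With 21 libraries the 3 counts were 9, 6 and 9. The opposite way, 1 macrophage and monocyte marker was called lower and 2 dendritic markers higher in both fits. With 21 libraries 1 cell-cycle gene was also called lower. The part of these markers in the proteasome values was not tested either. The interactions share the IgG and anti-PD-1 libraries with the comparisons above and give no independent repeat of them.

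Each inducible catalytic subunit replaces one constitutive subunit, and the ratio of the 2 within a library is free of the scaling between libraries. A trend over length and GC content need not cancel, since the paired genes differ: the longest transcript has 56.5% GC in Psmb10 and 40.8% in Psmb7. The ratios were not tested with that trend removed. Counts are not per length, so the ratios are read for their change only. In wild type Psmb8 over Psmb5 was 2.35, 2.43 and 2.66 with IgG, 2.24, 2.16 and 2.29 with anti-PD-1, 3.13, 2.98 and 3.22 with LGG and 3.21, 3.15 and 3.14 with the combination. The 6 libraries with LGG all lay above the 6 without, and the mean log2 ratio was higher by 0.42 (p = 0.005, exact permutation of the LGG label within antibody, two-sided, adjusted p = 0.01 over 6 tests). This p is the smallest that the 400 arrangements allow. Psmb9 over Psmb6 went from 0.753 to 0.899 without LGG to 0.90 to 1.01 with it, higher by 0.23, and Psmb10 over Psmb7 from 5.56 to 7.89 to 3.75 to 4.64, a log2 difference of -0.56, each with the same exact p. The 3 pairs thus did not move in one direction.

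In knockout the Psmb8 over Psmb5 ratio was 1.28 to 1.67 without LGG and 1.17 to 1.30 with it, a log2 difference of -0.21 (exact permutation p = 0.01, adjusted p = 0.015). Most of it lay in the anti-PD-1 arm, which holds 2 of the 3 libraries that stand apart: the mean log2 ratio was 0.65 with anti-PD-1 and 0.30 with the combination, against 0.41 with IgG and 0.34 with LGG, and the arms were not tested separately. Without the 3 libraries the difference was -0.15 and the adjusted exact p was 0.06. Psmb9 over Psmb6 differed by -0.05 (adjusted exact p = 0.61) and Psmb10 over Psmb7 by -0.60 (adjusted exact p = 0.582), the latter with a ratio of 57.4 in anti-PD-1 replicate 3 and 3.98 to 10.2 in the other 11 libraries. Without the 3 libraries these 2 differences were -0.07 and -0.50. That setting leaves 40 arrangements and 1 knockout anti-PD-1 library, so an unchanged Psmb10 over Psmb7 ratio is not read from these values. Under IgG the Psmb8 over Psmb5 ratio was 2.35 to 2.66 in wild type and 1.28 to 1.35 in knockout, and Psmb9 over Psmb6 was 0.753 to 0.879 and 0.384 to 0.416. These ranges are far apart, but the difference between genotypes was not tested.

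**Figure D4:**
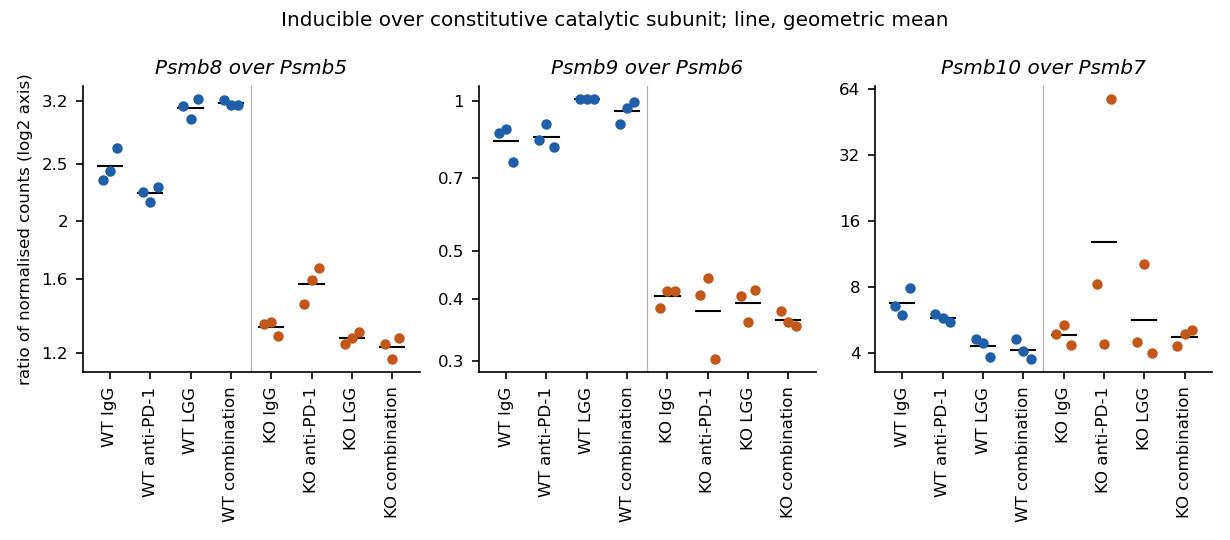
Ratio of the normalised counts of each inducible subunit to the constitutive subunit it replaces, on log2 axes, 1 point a library (blue WT, orange KO), with the geometric mean of 3 as a line. In WT the ratio of Psmb8 to Psmb5 is at least 2.98 in the libraries with LGG and at most 2.66 in those without, and in KO the highest ratio of Psmb10 to Psmb7, 57.4, is that of 1 anti-PD-1 library.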

How the data were processed

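The deposited table holds a normalised signal per gene and library: read counts that the authors divided by a size factor. Per the submitters' processing notes the tools were STAR 2.4.0, HTSeq 0.6.1 and DESeq2, with build mm10; the strand setting is not given in the sources used here. 100% of values were whole multiples, within 0.001, of the worth of 1 read in their library, so whole reads were recovered for the count tests. The main test was limma 3.58.1 (R 4.3.3; trend and robust options) on log2(value + 1), fitted to all 24 libraries over 12749 genes whose mean was 10 or more, two-sided, with Benjamini-Hochberg adjustment and calls below 0.05. Fold changes are on that scale. edgeR 4.0.16 (quasi-likelihood) and DESeq2 1.42.0 on whole reads, a pseudocount of 8, no filter, array weights, TMM scaling, a replicate block, only the libraries compared and each library left out were alternatives. Removing each library's trend over GC content (of the longest transcript) and merged exon length was added after seeing the data, and the 3 libraries left out together were those that stand apart. They were named directly, without a threshold on any measure. Their array weights, estimated over all tested genes, were 0.0578 and 0.0613 (knockout anti-PD-1 replicates 2 and 3) and 0.0844 (knockout LGG replicate 2). The other libraries had weights of 0.401 to 8.37. Ratios used an exact permutation test. limma and the permutation test were tested on simulated data. Members and gene lists were chosen with earlier results of these data known. Named genes are the called members with the 3 largest rises and falls of each comparison (where none was called, the 3 smallest p), the catalytic subunits Psmb5, Psmb6 and Psmb7, Psmd14, Psmd4, Psmd2, the largest and smallest change of each subcomplex with LGG in wild type, and Psmb8, Psmb9, Psmb10, Psme1, Psme2, Nfe2l1, Pomp and Myd88. Further genes named were chosen after their values were seen. Overlaps used GENCODE M21 and promoters RefSeq GRCm38.p6.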

Additional observations from a re-analysis of the deposited data

Results flagged for a closer look

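Each value here is the LGG effect in knockout minus that in wild type on the log2 scale, called by limma's interaction test. Without anti-PD-1 it was -0.91 for Psma6, -0.54 for Psmd11, -0.49 for Psmc6 and -0.31 for Psma1. Outside the constitutive genes it was -0.82 for Psme1, -1.24 for Psme2, -0.56 for Nfe2l1 and -0.76 for Myd88. In the presence of anti-PD-1 it was -1.10 for Psma6, -1.07 for Psmd4 and -0.41 for Psmd11. There it was also -1.61 for the inducible subunit Psmb8, -1.16 for Psmb9, -1.30 for Psme1, -1.70 for Psme2, -0.30 for Nfe2l1 and -0.76 for Myd88. Several of these calls were lost under other settings. Without anti-PD-1, the Psme1 call was lost with the replicate block (adjusted p = 0.0556) and on leaving out any one of 16 libraries (adjusted p up to 0.123 without knockout LGG replicate 3), that of Psme2 without knockout IgG replicate 1 or knockout LGG replicate 1 or 3 (0.0522, 0.055 and 0.0655), and that of Myd88 on leaving out any one of 7 libraries (up to 0.0857 without knockout LGG replicate 3). In the presence of anti-PD-1, the Nfe2l1 call was lost without the 3 libraries that stand apart (0.0627), with only the libraries compared (0.0632), with the replicate block (0.0548) and on leaving out any one of 16 libraries (up to 0.113 without wild-type anti-PD-1 replicate 1). There the Psmb8 call was lost with only the libraries compared (0.0686) and without knockout anti-PD-1 replicate 3 or wild-type combination replicate 1 (0.0507 and 0.0529). That of Myd88 was lost with only the libraries compared (0.0722) and on leaving out any one of 8 libraries (up to 0.0831 without knockout anti-PD-1 replicate 3).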

How the results depend on the processing

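Counts are members called higher and lower, in the order given. Shares of all genes were not computed for array weights, only the libraries compared, the trend removed or single libraries left out. Counts under these settings show how the calls moved, and nothing particular to the members is read from them. With array weights they were 25 and 2 for LGG against IgG in wild type, 1 and 1 for anti-PD-1, 16 and 6 for the combination against anti-PD-1, and 27 lower for the combination against LGG. In knockout the same 4 were 4 and 23, 11 and 2, 26 lower, and 2 and 1. Knockout against wild type gave 30 higher, and the interactions 1 and 30, and 1 and 27. With only the libraries compared they were 23 and 3, 1 lower for anti-PD-1, and 16 and 6 in wild type, 0 lower for LGG and 1 and 0 for the combination against anti-PD-1 in knockout, 30 higher between genotypes, and 7 and 1 lower in the interactions. Without the 3 libraries they were 23 and 2, 16 and 6, and 6 lower (combination against LGG) in wild type, 23 lower for LGG, 3 and 2 for anti-PD-1, 23 lower for the combination against anti-PD-1 and 2 higher against LGG in knockout, 30 higher between genotypes, and 1 and 29, and 1 and 25 in the interactions. With the length and GC trend removed 3 and 4 were called lower in the 2 wild-type comparisons with LGG, 7 lower for the combination against anti-PD-1 in knockout, 17 higher between genotypes and 5 lower in the second interaction. For the knockout combination against anti-PD-1 and the second interaction, edgeR gave 3 and 6 lower, beside 19.4% and 19.6% of all genes. DESeq2 gave 5 and 8 lower, beside 22.5% and 22.3%.

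Leaving out each library in turn gave 5 to 15 higher and 1 to 1 lower for LGG in wild type, 5 to 10 and 2 to 3 for the combination against anti-PD-1, and 0 to 0 for the other 2 wild-type comparisons. In knockout it gave 2 to 3 and 0 to 9 for LGG, 0 to 20 and 0 to 2 for anti-PD-1, 2 to 4 and 0 to 26 for the combination against anti-PD-1, and 0 to 0 against LGG. Between genotypes it gave 6 to 19 higher, and in the interactions 2 to 12 lower, and 0 to 1 higher and 1 to 26 lower. For LGG in wild type 15 and 14 were called without knockout anti-PD-1 replicate 2 and 3, and 10 for the combination without replicate 2. The ratio differences ranged from 0.398 to 0.444, 0.190 to 0.247 and -0.611 to -0.507 in wild type, and from -0.235 to -0.185, -0.132 to 0.004 and -0.985 to -0.058 in knockout.

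In knockout with LGG the sign turned with array weights and without the 3 libraries for Psmb5 (-0.279 and -0.365), Psmd4 (-0.207 and -0.232) and Psma6 (-0.195 and -0.204), and without the 3 libraries for Psmd1 (0.299). The causes were not tested. In the fit with the replicate number as a block no count of called members was marked as moved, a mark that small differences do not receive. The numbers are names only: 84 same-number pairs had a median correlation of 0.023 (-0.832 to 0.560), and 10 of 24 libraries correlated best with their own number. With the replicate block the ratio differences were 0.418, 0.225 and -0.565 in wild type (adjusted exact p = 0.0625 each) and -0.207 for Psmb8 over Psmb5 in knockout (0.0938). In wild type the exact p before adjustment was the smallest that the fewer arrangements within blocks allow, so this setting could not give a lower one. Without the 3 libraries the knockout difference was -0.151 (0.06).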
